A study of Mus musculus with 24 samples.

Results

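The Myc, Max and Mxd network is a family of transcription factors, and the account here follows its 10 genes of the 24537 genes counted: Myc, Mycn, Mycl, Max, Mxd1, Mxd3, Mxd4, Mxi1, Mnt and Mlx. They were chosen by name, as the Myc activators, their partner Max, the antagonists that compete for Max and the related partner Mlx, by a rule that uses no measured value. RNA was sequenced from whole extensor digitorum longus (EDL) and soleus (SOL), a fast and a slow hindlimb muscle, of mice 2 months old. Both genotypes carried the same 4F cassette, a polycistronic tetO transgene for Oct4, Sox2, Klf4 and c-Myc, and the same rtTA transactivator behind a LoxP-STOP-LoxP block. In Acta1-Cre+/4Fhet mice (Cre+) the Acta1 promoter drives Cre in skeletal myofibres and opens the block there, whereas Acta1-Cre-/4Fhet mice (Cre-) have no Cre. Both received doxycycline (Dox) at 1 mg/ml in drinking water for 2.5 days, 5.5 days or 8.5 days, so Cre- is a control that had the drug and the cassette. Each of the 12 groups of muscle, genotype and day held 2 libraries. The study set the libraries of 5.5 days aside, and they are given here separately from the 16 libraries of 2.5 and 8.5 days. The paper's methods state that samples lacking overexpression of the cassette factors were treated as outliers and left out. Myc is one of these factors, so the choice of the 16 libraries may rest in part on the level of Myc.

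Proteins of this network bind DNA only in pairs. Myc, N-Myc and L-Myc each pair with Max on E-box sequences such as CACGTG and recruit coactivators, raising ribosome, nucleotide and metabolic genes. Mxd1, Mxd3, Mxd4, Mxi1 and Mnt pair with the same Max on the same boxes and recruit the Sin3 and histone deacetylase corepressor, so Max serves both sides. Mlx is the partner of the glucose sensors MondoA and ChREBP and can also pair with Mxd1, Mxd4 and Mnt. Myc falls as cells leave the cycle during muscle differentiation, while several antagonists are kept in resting and differentiated cells. Myc is also 1 of the 4 genes in the cassette, so its read count here adds the cassette transcript to that of the mouse's own gene, and the counts do not separate them.

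Each library held between 36088781 and 54679082 counted reads. Levels are given as FPKM, counted reads scaled to transcript length and library total, with no further scaling. Fold changes came from edgeR's quasi-likelihood test, after TMM scaling between libraries, and adjusted p-values follow Benjamini and Hochberg over all 15372 genes tested. With 2 libraries a group, they measure the spread between these libraries. A gene was called where its adjusted p was under 0.05 and its log2 fold change exceeded 0.5 in size. All 10 members passed the filter on low counts, which was not used to choose them. TMM factors were 1.075 to 1.206 in EDL Cre+ and 0.9212 to 0.98 in EDL Cre- libraries of 2.5 and 8.5 days, so FPKM ratios in EDL exceed the fitted folds. Over all genes, the median log2 fold change of EDL Cre+ against Cre-, mean of both days, was -0.0406 with TMM and 0.214 with scaling by library size alone. Myofibre markers, taken as a sum, were lower in the same libraries. Their 10 genes summed to 46170 to 55530 FPKM in EDL Cre+ and 72690 to 81310 FPKM in EDL Cre-. In the mean of both days 6 of 10 were called lower and 1 higher, beside 11.0% and 13.1% of all genes. None of the 10 was at 0 in any library. The part of this shift in the results below was not tested, and in whole muscle fewer cells of a type and less RNA per cell cannot be told apart.

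CACGTG boxes lay close upstream of several members. Windows of 300 bases around RefSeq gene starts (250 before and 50 after, build GRCm38.p6, both strands, a palindrome) were read for 9 of the 10 members, all but Myc. The box was found for 4 of these 9 genes, Mxd4, Mnt, Mlx and Max, and in 4 of their 11 windows. Over all promoters of the same length, 2349 of 32851 windows (7.15%) held it. The sequences around the boxes are shown because these are the letters the Myc and Max pair is known to bind, and the region before Mxd3 is shown beside that before Mnt because both genes rose in EDL. All run 5′ to 3′ on the strand of the gene, with CACGTG in capitals. The Mnt box began 123 bases before the start, that of Mxd4 219, that of Mlx 40 and that of Max 3 bases before it.
Mxd4 (chr5:34187899-34187954, minus strand): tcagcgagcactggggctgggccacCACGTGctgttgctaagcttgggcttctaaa
Mlx (chr11:101087225-101087280, plus strand): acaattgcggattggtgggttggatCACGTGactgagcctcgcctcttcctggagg
Max (chr12:76962243-76962276, minus strand): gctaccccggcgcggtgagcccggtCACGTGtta
Mnt, 250 bases before the start (chr11:74830674-74830923, plus strand): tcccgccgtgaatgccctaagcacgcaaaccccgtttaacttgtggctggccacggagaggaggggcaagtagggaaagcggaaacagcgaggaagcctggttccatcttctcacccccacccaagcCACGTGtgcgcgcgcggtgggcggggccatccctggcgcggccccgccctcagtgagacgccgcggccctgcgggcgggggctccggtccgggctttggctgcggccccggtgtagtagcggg
Mxd3, 250 bases before the start (chr13:55329732-55329981, minus strand): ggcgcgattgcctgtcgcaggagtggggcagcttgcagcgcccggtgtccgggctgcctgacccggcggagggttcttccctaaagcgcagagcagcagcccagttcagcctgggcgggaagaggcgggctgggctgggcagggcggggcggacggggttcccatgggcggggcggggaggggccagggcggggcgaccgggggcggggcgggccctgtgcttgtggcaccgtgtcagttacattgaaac
The Mxd3 region holds no CACGTG, which says only that these letters are not in this window. Genes called higher in EDL Cre+ held the box in 12.2% of their windows, genes called lower in 7.5% and tested genes not called in 9.2%. These shares are descriptions and not evidence of binding.

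In control muscle the network was weighted towards Max and the antagonists Mxd4 and Mxi1. Mean FPKM over the 4 Cre- EDL libraries of 2.5 and 8.5 days was 18.5 ± 2.05 (SD, n = 4) for Mxd4, 17.4 ± 3.29 for Mxi1 and 16.5 ± 1.45 for Max. It was 8.42 ± 0.378 for Mlx, 4.11 ± 0.519 for Mnt, 2.84 ± 0.490 for Myc and 2.44 ± 0.378 for Mxd1, and 0.282 ± 0.145 for Mycn, 0.147 ± 0.109 for Mxd3 and 0.0956 ± 0.0454 for Mycl. The neighbours Mxd4, Mxi1 and Max overlapped between libraries, as did Myc with Mxd1 and the 3 lowest genes among themselves, so their order within each cluster is not set. Mxd4 and Mxi1 together made up 77.57% to 85.7% of the summed antagonist FPKM in each of the 24 libraries of the series. In Cre- SOL, Max (17.9 ± 1.30), Mxd4 (16.9 ± 1.34) and Mxi1 (16.2 ± 1.33) were again the highest, and Myc was at 2.42 ± 0.328 FPKM. In Cre- mice 2 of the 10 were called between the muscles, beside 21.9% of all genes tested. Mxd1, an antagonist known to rise as cells differentiate, was higher in EDL by 0.61 ± 0.16 (log2, SE; edgeR adjusted p = 0.0125). Mycl, which encodes L-Myc, was lower in EDL by a log2 difference of -0.93 ± 0.27 (edgeR adjusted p = 0.0169). The Mxd1 call was lost without EDL Cre- replicate 1 or SOL Cre- replicate 2 of 2.5 days or SOL Cre- replicate 2 of 8.5 days (edgeR adjusted p = 0.0504 to 0.0532). The Mycl call was lost without SOL Cre- replicate 1 or EDL Cre- replicate 2 of 2.5 days or SOL Cre- replicate 2 of 8.5 days (edgeR adjusted p = 0.0579 to 0.0774).

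**Figure D1:**
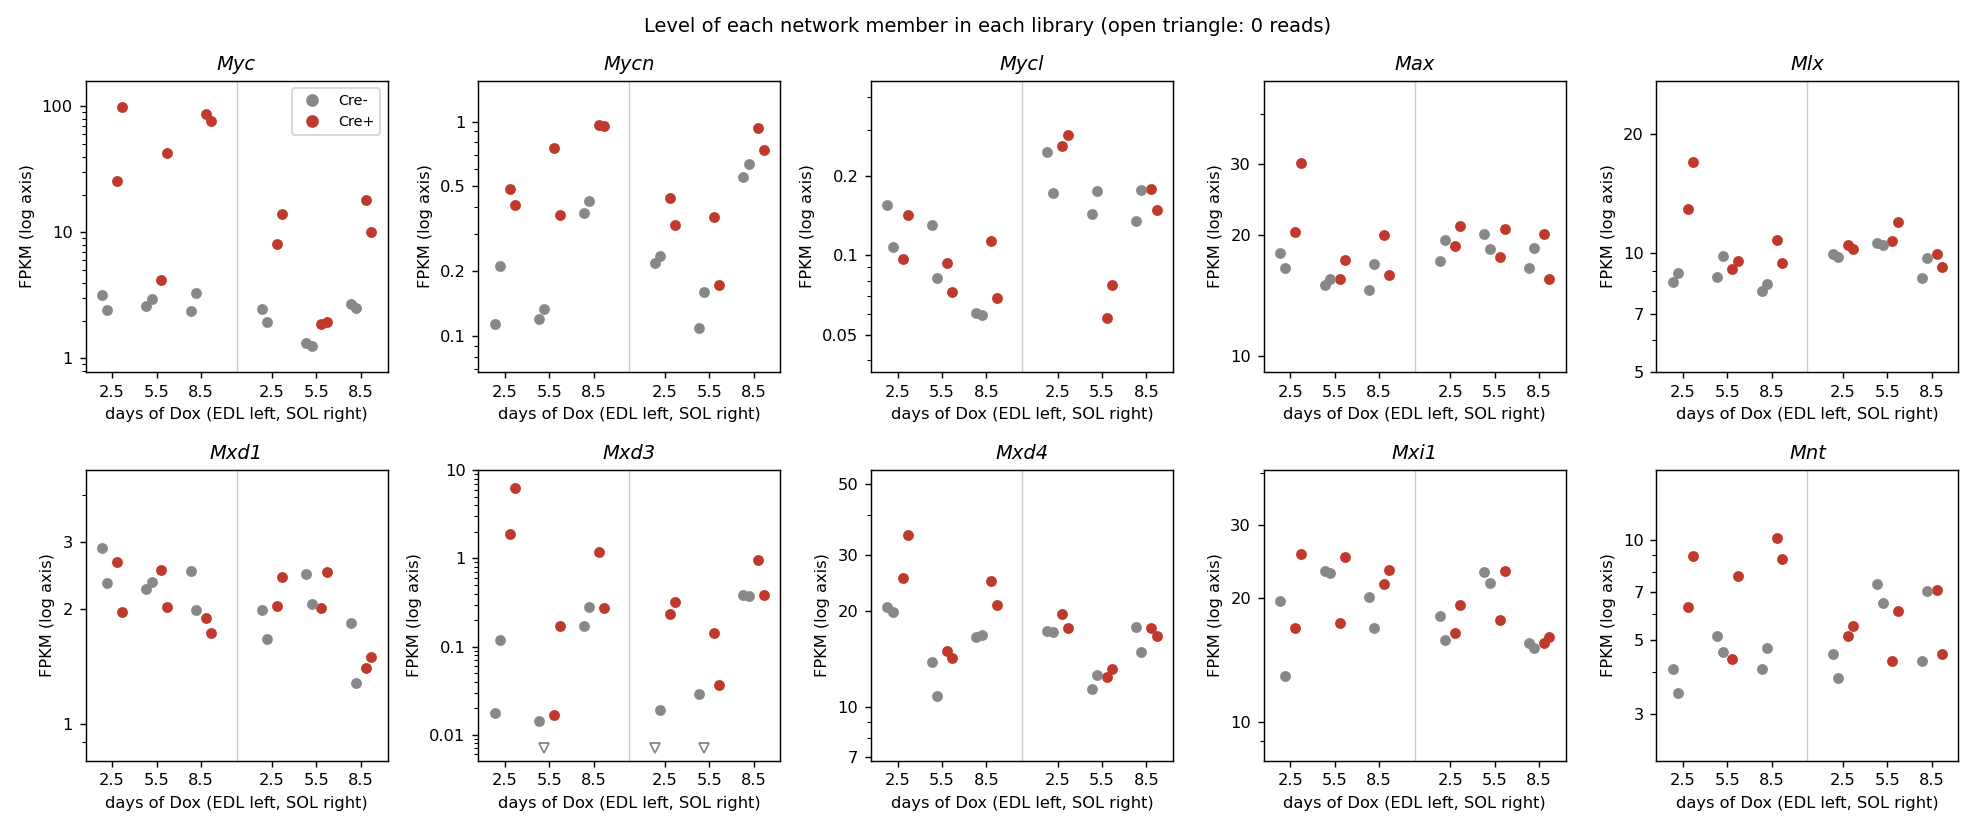
FPKM of each of the 10 members (log axis) against days of Dox, EDL left and SOL right in each panel, with 1 point per library, grey for Cre- and red for Cre+. Myc in EDL Cre+ lies between 4.19 and 99.4 FPKM, above every EDL Cre- library (at most 3.34), whereas Max stays between 14.6 and 30.2 FPKM in all libraries.

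Myc rose with Cre in both muscles, and by more in EDL. Myc (chr15:61985341-61990361 in mm10, plus strand) is the activator that drives growth and cell cycle entry. In EDL at 2.5 days its FPKM was 3.18 and 2.44 in the Cre- libraries and 25.4 and 99.4 in the Cre+ libraries. At 8.5 days it was 2.40 and 3.34 in Cre- and 87.1 and 77.2 in Cre+. The groups did not overlap, and the Cre+ replicates of 2.5 days stood further apart than those of 8.5 days. In SOL it was 2.45 and 1.95 in Cre- against 8.17 and 14.03 in Cre+ at 2.5 days, and 2.73 and 2.53 against 18.1 and 10 at 8.5 days. Here too each Cre+ library lay above each Cre- library, at a lower level than in EDL. The log2 fold change was 4.12 ± 0.52 (edgeR adjusted p = 0.00016) in EDL at 2.5 days and 4.65 ± 0.53 (edgeR adjusted p = 0.000142) at 8.5 days. Without EDL Cre+ replicate 2 of 2.5 days, the higher of the pair, the fold change of that day was 2.90 (edgeR adjusted p = 0.00031). In SOL it was 2.18 ± 0.50 (edgeR adjusted p = 0.0971) at 2.5 days and 2.37 ± 0.49 (edgeR adjusted p = 0.056) at 8.5 days, neither of which was called, and both were called by DESeq2 (adjusted p = 0.00496 and 0.00129). Averaged over both days, which uses the same libraries, Myc rose by 4.39 (95% interval 3.58 to 5.19) in EDL and by 2.27 (1.52 to 3.03; edgeR adjusted p = 0.00543) in SOL. The EDL mean was 3.77 without the library just named.

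The rise of Myc differed between the muscles. The difference of the log2 fold changes, EDL minus SOL, was 2.11 ± 0.48 (95% interval 1.07 to 3.15; edgeR adjusted p = 0.0164), and 1 of the 10 members was called higher in this comparison beside 5.91% of all genes tested. It was 1.5 (edgeR adjusted p = 0.0167) without EDL Cre+ replicate 2 of 2.5 days. With the libraries of 5.5 days in the same fit, its value was 2.12 and it was no longer called (adjusted p = 0.0529). In Cre- mice the level of Myc differed between EDL and SOL by 0.33 ± 0.35 (log2, edgeR adjusted p = 0.52), and in Cre+ mice by 2.44 ± 0.34 (edgeR adjusted p = 9.98e-05; 1.83 without that library). Whether the cassette or the endogenous gene differed cannot be told apart. No difference between 8.5 and 2.5 days was called for the change of Myc, with values of 0.53 (-0.91 to 1.98) in EDL and 0.20 (-1.27 to 1.67) in SOL.

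Of the 10 members, 4 were called higher with Cre in EDL at 2.5 days, 3 at 8.5 days and 4 in the mean of both days, where 13.8%, 7.63% and 13.1% of all genes tested were called higher. No member was called lower in this fit of 16 libraries, where 10.2%, 6.50% and 11.0% of all genes were. In SOL 0 members were called at 2.5 days (0.384% of all genes) and at 8.5 days (0.631%), and Myc alone in the mean of both days, where 1.14% of all genes were called higher. At an unadjusted p under 0.05, edgeR gave 2 members in SOL at 2.5 days, Myc and Mxd3 (13.4% of all genes), and 1 at 8.5 days, Myc (6.60%). DESeq2 called 1 member, Myc, at each day. Over all genes it called 182 higher and 185 lower at 2.5 days and 108 and 63 at 8.5 days. In the SOL mean, 3 members had such a p (16.3% of all genes), and Mycn and Mxd3 were at 0.53 ± 0.21 (edgeR adjusted p = 0.239) and 2.60 ± 0.82 (edgeR adjusted p = 0.14). The members called in EDL were Myc, Mycn, Mxd3 and Mnt, a pair of activators and a pair of antagonists. The median log2 fold change of the 10 members was 0.342 in EDL at 2.5 days and 0.344 at 8.5 days.

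**Figure D2:**
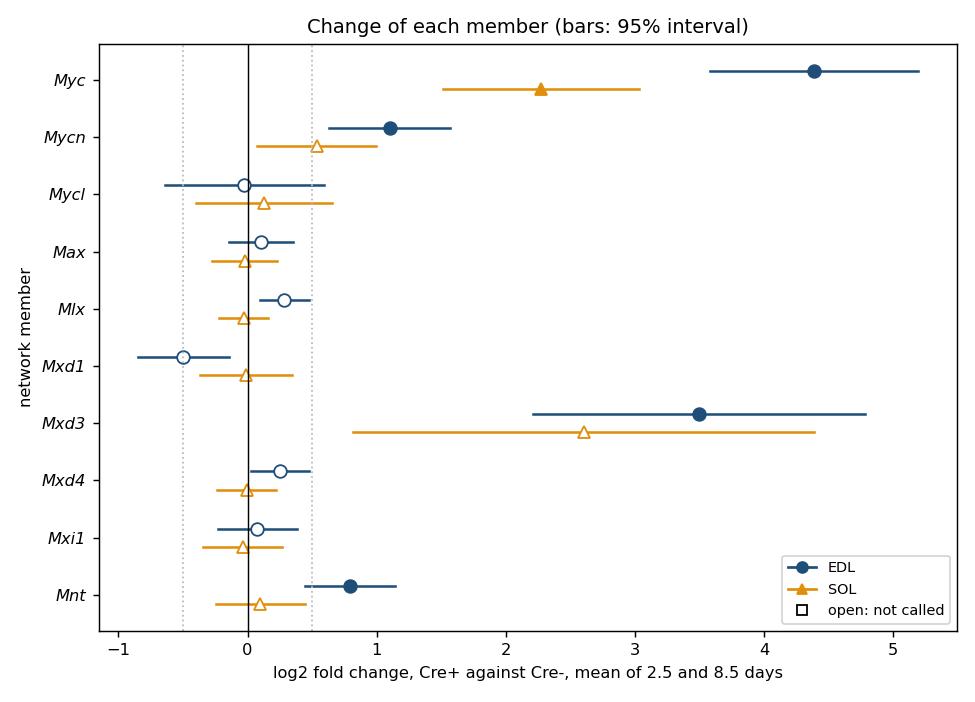
log2 fold change of each member, Cre+ against Cre-, averaged over 2.5 and 8.5 days, for EDL (circles) and SOL (triangles), with 95% intervals as bars. Filled symbols were called and dotted lines mark the limit of 0.5. In EDL Myc, Mycn, Mxd3 and Mnt are filled, and in SOL Myc alone.

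Mycn (chr12:12936093-12941836, minus strand), which encodes N-Myc, an activator best known from embryonic tissue, rose in EDL from a low level. It had 13 and 25 reads in the Cre- libraries and 60 and 47 in the Cre+ libraries at 2.5 days, and 35 and 46 against 133 and 118 at 8.5 days. The groups were separate at each day but overlapped across days, since Cre- at 8.5 days (0.374 and 0.428 FPKM) reached the level of Cre+ at 2.5 days (0.484 and 0.409 FPKM). Its log2 fold change was 1.12 ± 0.32 (edgeR adjusted p = 0.0202) at 2.5 days, 1.08 ± 0.29 (edgeR adjusted p = 0.0252) at 8.5 days and 1.1 ± 0.22 (edgeR adjusted p = 0.00168) in the mean of both. Leaving out any 1 of the 4 EDL libraries of 8.5 days ended that day's call (adjusted p = 0.0502 to 0.14), and leaving out replicate 1 of Cre+ or of Cre- ended that of 2.5 days (adjusted p = 0.0808 and 0.182). DESeq2 on the 4 libraries of a day called neither (1.16, adjusted p = 0.19 at 2.5 days and 1.09, adjusted p = 0.0864 at 8.5 days), and the edgeR fit of all 24 libraries did not call 8.5 days (1.06, adjusted p = 0.0515). The mean over both days was called without each of the 8 EDL libraries in turn. In SOL, Mycn had 22 and 25 reads in Cre- and 53 and 35 in Cre+ at 2.5 days, and 55 and 68 against 126 and 95 at 8.5 days. The difference of its change between EDL and SOL was 0.57 (-0.09 to 1.22; edgeR adjusted p = 0.265). Even in EDL Cre+ at 8.5 days it stood at 0.968 and 0.960 FPKM, beside 87.1 and 77.2 for Myc.

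Mycl did not pass the test in any comparison with Cre at 2.5 or 8.5 days. Its reads in EDL were 25 and 18 in Cre- and 17 and 23 in Cre+ at 2.5 days, and 8 and 9 against 22 and 12 at 8.5 days. Its log2 fold change in the EDL mean was -0.02 (95% interval -0.64 to 0.59), an interval that reaches past 0.5 on both sides, so a change of that size was not detectable at this depth. In Cre+ mice it was lower in EDL than in SOL by a log2 difference of -1.08 ± 0.25 (edgeR adjusted p = 0.00395), and in that comparison 4 members were called beside 29.6% of all genes. The others were higher in EDL: Myc, given above, Mxd3 by 1.92 ± 0.51 (edgeR adjusted p = 0.00879) and Mnt by 0.54 ± 0.16 (edgeR adjusted p = 0.0149). The Mxd3 call was lost without EDL Cre+ replicate 2 of 2.5 days (1.39, adjusted p = 0.0509) or replicate 1 of 8.5 days (1.25, adjusted p = 0.0866). The Mnt call was lost without the former, without SOL Cre+ replicate 1 of 2.5 days or without SOL Cre+ replicate 2 of 8.5 days (edgeR adjusted p = 0.0505 to 0.0648).

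Max, the partner both sides need, was not called with Cre in either muscle. In EDL its FPKM was 18.1 and 16.5 in Cre- and 20.4 and 30.2 in Cre+ at 2.5 days, and 14.6 and 17.0 against 19.99 and 15.9 at 8.5 days. After TMM scaling the 4 Cre+ and 4 Cre- libraries overlapped. The log2 fold change in the mean of both days was 0.10 (95% interval -0.15 to 0.35) in EDL and -0.02 (-0.27 to 0.23) in SOL, so the intervals lie within the limit of 0.5. With scaling by library size alone, Max was 0.55 (adjusted p = 0.0408) in EDL at 2.5 days and was then called. An annotated transcript of unknown type on the same strand, Gm47218, shares 1319 bases with Max, so the counts of the locus are uncertain to that extent. The same holds for Mxd1 with Gm44292 on the same strand (2364 bases), and, on the opposite strand, for Mlx with Psmc3ip (385 bases) and Mxi1 with Gm10197 (201 bases). Mlx was not called in the fit of 16 libraries. Its FPKM in EDL was 8.43 and 8.90 in Cre- and 12.9 and 17.0 in Cre+ at 2.5 days, with a log2 fold change of 0.45 ± 0.12 (edgeR adjusted p = 0.0165), and 0.12 ± 0.12 at 8.5 days (edgeR adjusted p = 0.564). With library size alone it was 0.79 (adjusted p = 0.00117) at 2.5 days and 0.55 (adjusted p = 0.000911) in the mean of both days, and was called in each. It was also called at 2.5 days without Cre+ replicate 1 (0.59, edgeR adjusted p = 0.00452) or Cre- replicate 2 (0.51, edgeR adjusted p = 0.0489).

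Among the antagonists, Mxd3 and Mnt rose in EDL, Mxd4 and Mxi1 were not called, and Mxd1 lay just under the fold limit on the lower side. Mxd3 (chr13:55325168-55329730 in mm10, minus strand) differs from the other Mxd genes in being known from dividing cells, where it peaks in S phase. In EDL at 2.5 days it had 1 and 7 reads in the Cre- libraries and 116 and 363 in the Cre+ libraries. At 8.5 days it had 8 and 15 in Cre- and 82 and 17 in Cre+. The Cre+ libraries were far above Cre- at 2.5 days, while at 8.5 days only replicate 1 stood clear of them. The ratio of summed CPM was 58.3 (95% counting interval 29.4 to 136) at 2.5 days and 3.32 (2.09 to 5.48) at 8.5 days, where the interval covers counting error alone. The fitted log2 fold change was 5.50 ± 0.89 (edgeR adjusted p = 0.000758) at 2.5 days and 1.49 ± 0.78 (edgeR adjusted p = 0.228) at 8.5 days. The mean of both days was 3.49 (95% interval 2.21 to 4.78; edgeR adjusted p = 0.000597). Leaving out 1 library moved the value of 2.5 days between 4.44 and 7.39 and that of the mean between 2.83 (without Cre+ replicate 1 of 8.5 days) and 4.44 (without Cre- replicate 2 of 2.5 days), with each call kept. The extremes of 2.5 days came without Cre+ replicate 2 and without Cre- replicate 2, and with so few control reads the fitted fold depends on the prior count of the fit. The difference between the days, 8.5 minus 2.5, was -4.01 ± 1.22 with an unadjusted p of 0.00602 and an edgeR adjusted p of 0.345, and 0% of all genes were called in it. It was the 1 member of 10 with an unadjusted p under 0.05 for the day difference in EDL (9.56% of all genes), against 0 in SOL (2.62%). DESeq2 called 0 members in each, with 42 higher and 101 lower over all genes in EDL and 0 and 9 in SOL. In SOL, Mxd3 had 0 and 1 reads in Cre- and 14 and 17 in Cre+ at 2.5 days, a CPM ratio of 28.3 (4.71 to 1150), and 19 and 20 against 65 and 25 at 8.5 days, a ratio of 1.81 (1.23 to 2.71). It was not called in SOL by edgeR, and was called by DESeq2 in the mean of both days (2.73, adjusted p = 0.0488). Mxd3 shares 105 bases with Prelid1 on the opposite strand, and whether the counting used strand is not given in the sources used here.

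The rise of Mxd3 at 2.5 days was set beside 12 markers of proliferating cells. None of the 12 was called by edgeR in EDL, with 0 at an unadjusted p under 0.05 at 2.5 days (39.0% of all genes) and 2 in the mean of both days (45.6%). Their median log2 fold change was 0.46 at 2.5 days and 0.429 in the mean of both days. Their summed FPKM in EDL at 2.5 days was 0.8142 and 1.366 in Cre- and 2.018 and 1.067 in Cre+. Replicate 2 of Cre+, which held the highest Mxd3 of the series at 6.34 FPKM, thus lay between the Cre- replicates in these markers. These sums are low, and 2 and 1 of the 12 markers were at 0 in Cre- replicates 1 and 2. At 8.5 days the order was different. The library with most Mxd3, Cre+ replicate 1, also had the highest marker sum of the EDL libraries. It was 6.896 FPKM, against 2.219 in the other Cre+ replicate and 2.231 and 3.905 in Cre-. The part of proliferating cells in the rise of Mxd3 was not tested.

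**Figure D3:**
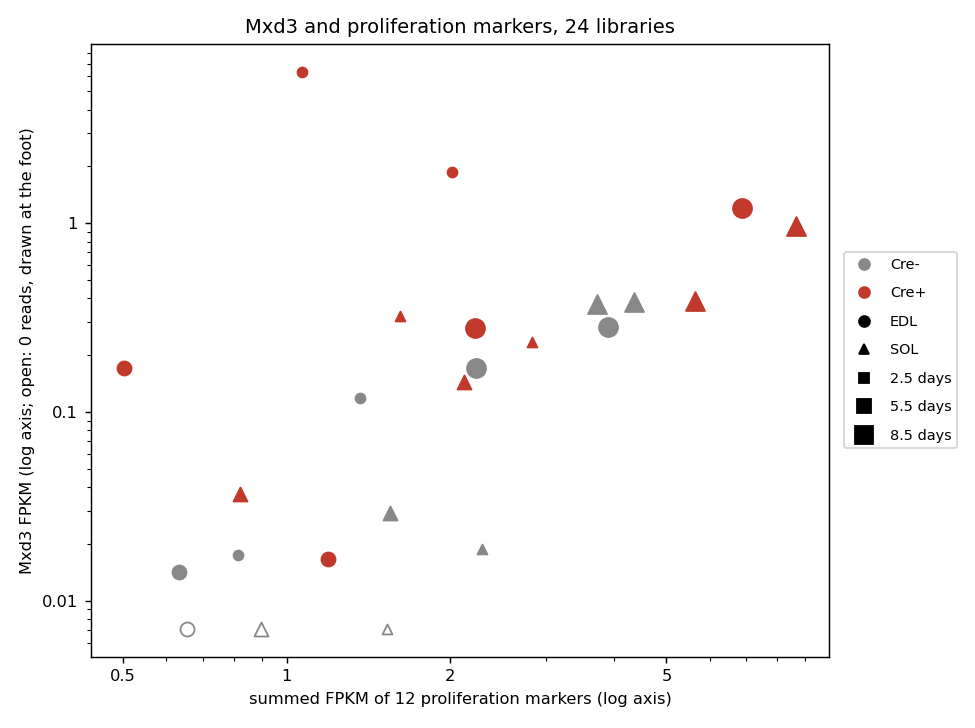
Mxd3 FPKM against the summed FPKM of 12 proliferation markers, both on log axes, for all 24 libraries, with circles for EDL, triangles for SOL, red for Cre+, grey for Cre- and symbol size for the day. The EDL Cre+ libraries of 2.5 days stand at the top, at 1.88 and 6.34 FPKM of Mxd3 with marker sums of 2.018 and 1.067. The libraries of 8.5 days lie to the right of these, at 2.219 to 8.638, a range that SOL libraries of 2.5 days enter with 2.284 and 2.828.

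Mnt (chr11:74830924-74845725, plus strand), a broadly expressed antagonist found with Max in resting and cycling cells alike, rose in EDL. Its FPKM was 4.11 and 3.47 in Cre- and 6.30 and 8.94 in Cre+ at 2.5 days, and 4.11 and 4.74 against 10.2 and 8.78 at 8.5 days. Every Cre+ library of these days lay above every Cre- library, which held for 2 of the 10 members, Myc and Mnt, and for 15.0% of all genes. In SOL it held for 1 member, Myc, and for 4.54% of all genes. Its log2 fold change was 0.67 ± 0.23 (edgeR adjusted p = 0.0419) at 2.5 days and 0.91 ± 0.23 (edgeR adjusted p = 0.0162) at 8.5 days. The call of 2.5 days was lost without Cre+ replicate 2 (0.45, adjusted p = 0.307), Cre- replicate 1 (adjusted p = 0.0959) or Cre- replicate 2 (adjusted p = 0.201), in the fit of all 24 libraries (0.68, adjusted p = 0.0591) and with a block on the replicate number (0.67, adjusted p = 0.0651). The call of 8.5 days was lost without replicate 1 of Cre- or of Cre+ (adjusted p = 0.116 and 0.109). The mean over both days, 0.79 ± 0.16 (edgeR adjusted p = 0.00192), was called without each library in turn. In SOL the Mnt FPKM was 4.54 and 3.84 in Cre- and 5.14 and 5.51 in Cre+ at 2.5 days, and 4.32 and 7.02 against 7.08 and 4.55 at 8.5 days. The groups of 8.5 days overlapped there. After TMM scaling those of 2.5 days overlapped too, at 21.3 to 22.6 CPM in Cre+ and 17.4 to 21.6 CPM in Cre-. The change in the SOL mean was 0.10 (95% interval -0.25 to 0.44). The difference of the change, EDL minus SOL, was 0.70 ± 0.22 and not called (edgeR adjusted p = 0.0693), whereas the fit that paired EDL and SOL libraries of the same replicate number, which the labels do not tie to a mouse, called it (0.69, edgeR adjusted p = 0.0196), as did DESeq2 (0.71, adjusted p = 0.0242).

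Mxd4 and Mxi1, the most abundant antagonists, were not called with Cre in either muscle. Mxd4 FPKM in EDL was 20.6 and 19.9 in Cre- and 25.4 and 34.7 in Cre+ at 2.5 days, and 16.6 and 16.9 against 24.9 and 20.9 at 8.5 days. Its fitted log2 fold change in the mean of both days was 0.25 (95% interval 0.02 to 0.48; edgeR adjusted p = 0.078), and 0.51 (adjusted p = 0.00277) with library size alone, where it was called. Mxi1 was 0.08 (-0.23 to 0.38) in the same mean, with 19.6 and 12.9 FPKM in Cre- and 16.9 and 25.5 in Cre+ at 2.5 days. Mxd1 was the member that went the other way. Its FPKM in EDL was 2.90 and 2.35 in Cre- and 2.66 and 1.97 in Cre+ at 2.5 days, and 2.52 and 2.00 against 1.90 and 1.73 at 8.5 days. Its log2 fold change in the mean of both days was -0.50 ± 0.16 (edgeR adjusted p = 0.0298), which missed the limit on the fold change. It was -0.51 (adjusted p = 0.0139) and called in the fit of all 24 libraries, -0.64, -0.56 and -0.57 and called without Cre+ replicate 1 of 2.5 days or Cre- replicate 2 of either day, and -0.25 (adjusted p = 0.22) with library size alone. In SOL it was -0.01 (-0.36 to 0.35).

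The levels were then summed by side, as a description. Myc, Mycn and Mycl together stood at 0.0647 to 0.0937 of the summed FPKM of the 5 antagonists in the 6 EDL Cre- libraries. In EDL Cre+ this ratio was 0.489 and 1.29 at 2.5 days and 1.47 and 1.42 at 8.5 days, so that the activators passed the antagonists in 3 of these 4 libraries. In SOL it was 0.0611 to 0.0863 in the Cre- libraries of 2.5 and 8.5 days. It was 0.204 and 0.324 at 2.5 days and 0.449 and 0.277 at 8.5 days in SOL Cre+, and the activators stayed below the antagonists in each. Myc made up 97.76% to 99.45% of the activator sum in the EDL Cre+ libraries of these days. Against Max alone, the activator sum was 0.167 to 0.225 in EDL Cre-, and in EDL Cre+ it was 1.28 and 3.31 at 2.5 days and 4.41 and 4.92 at 8.5 days. In SOL Cre+ of these days it was 0.472 to 0.956, so the activators stayed below Max there. These are ratios of transcript levels, and protein was not measured. Myc FPKM used the 2394 bases of the mouse's own gene for all Myc reads, those of the cassette included. The length of the Myc part of the cassette is not given in the sources used here. Where the ratios lie against 1 may depend on that length.

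**Figure D4:**
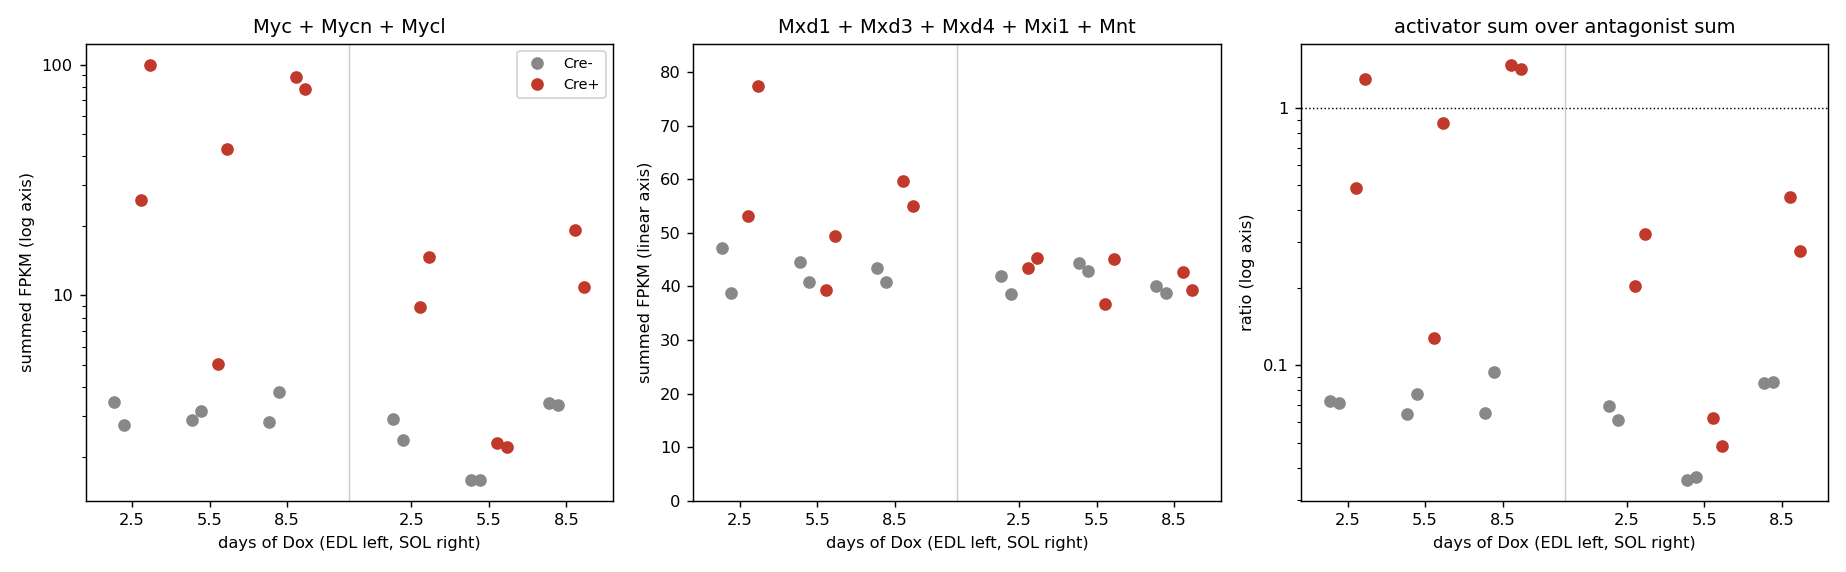
Summed FPKM of the 3 activators (log axis), of the 5 antagonists (linear axis from 0) and their ratio (log axis) in each library against days of Dox, EDL left and SOL right, grey for Cre- and red for Cre+. The dotted line marks a ratio of 1, which EDL Cre+ libraries pass with 1.29, 1.47 and 1.42 while no SOL library exceeds 0.449.

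The libraries of 5.5 days, which the study set aside, were fitted with all 24 libraries over 15478 genes. Myc in EDL was 2.63 and 2.94 FPKM in Cre- and 4.19 and 42.8 FPKM in Cre+, so 1 Cre+ library was near the controls and the other was within the range of 2.5 days. In SOL it was 1.34 and 1.25 in Cre- and 1.88 and 1.95 in Cre+. The log2 fold change of Myc was 2.94 ± 0.72 in EDL and not called (edgeR adjusted p = 0.116), whereas DESeq2 (2.95, adjusted p = 0.0126) and edgeR with no filter on low counts (2.96, adjusted p = 0.0354) called it. Without Cre+ replicate 1, the library near the controls, it was 3.81 (edgeR adjusted p = 0.000616). In SOL it was 0.50 ± 0.75 (edgeR adjusted p = 1). Of the 10 members, Mycn was called in EDL (1.99 ± 0.40; edgeR adjusted p = 0.0481), beside 0.258% of all genes called higher, with 17 and 15 reads in Cre- and 91 and 43 in Cre+. This call was lost without each single EDL library of that day (adjusted p = 0.0519 to 0.485). In SOL 0 members were called by edgeR and 0 by DESeq2, beside 0% of all genes. At an unadjusted p under 0.05 edgeR gave 2 there (3.86% of all genes), Mycl at -1.28 ± 0.38 and Mycn at 0.92 ± 0.42. Mnt in EDL was 5.15 and 4.62 FPKM in Cre- and 4.39 and 7.83 in Cre+, and the library with more Mnt was the one with more Myc. In EDL, the activator to antagonist ratio was 0.128 in Cre+ replicate 1 and 0.874 in replicate 2.

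Mycn and Mxd3 also differed between 2.5 and 8.5 days in the controls, a comparison chosen after the data were seen. In Cre- mice, taking the mean of EDL and SOL, Mycn was higher at 8.5 than at 2.5 days by 1.29 ± 0.23 (log2; edgeR adjusted p = 0.00511) and Mxd3 by 3.31 ± 0.88 (edgeR adjusted p = 0.0401). These 2 of 10 members stand beside 4.23% of all genes called higher. The Cre- libraries of 5.5 days, outside this comparison, were not raised. Mxd3 had 1 and 0 reads in EDL and 2 and 0 in SOL there, and Mycn 17 and 15 in EDL and 15 and 18 in SOL. Mxd3 had 1, 7, 0 and 1 reads in the 4 Cre- libraries of 2.5 days and 8, 15, 19 and 20 in those of 8.5 days, and its call was lost without each of 7 of the 8 libraries (log2 values of 2.91 to 4.56, edgeR adjusted p up to 0.118), the highest without SOL Cre- replicate 2 of 2.5 days and the exception being EDL Cre- replicate 2 of 2.5 days. Markers of proliferating cells moved in the same comparison, with 4 of 12 called higher (Mki67 2.66, Top2a 2.65, Ccnb1 5.70 and Ccnb2 1.75) and a median of 1.6. So did 4 of 10 macrophage markers, 2 of the 5 neutrophil markers tested and 6 of 6 liver transcripts. The liver sum was 19.97 and 102.7 FPKM in SOL Cre- at 8.5 days and 0.5636 and 0.6366 FPKM at 2.5 days. In EDL Cre- it was 6.719 and 6.949 FPKM at 8.5 days and 0.962 and 1.285 FPKM at 2.5 days. In the Cre+ libraries of 8.5 days it was 1.055 and 0.8074 FPKM in EDL and 0.8442 and 1.276 FPKM in SOL. The raised sum was thus in the Cre- libraries, the controls of each Cre comparison at 8.5 days. There 6 of 6 liver transcripts were lower in Cre+ at an unadjusted edgeR p under 0.05 in each muscle. Such a p was held by 29.8% of all genes in EDL and 6.60% in SOL. The part of this signal in those comparisons was not tested. The 12 proliferation markers summed to 0.8142 to 2.284 FPKM in the Cre- libraries of 2.5 days and 2.231 to 4.348 FPKM in those of 8.5 days. Their part in the rise of Mycn and Mxd3 was not tested. In this design the days of Dox cannot be told apart from other differences between the sets of samples of each day.

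Genes around the network were read from fixed lists. Of 33 genes known to be activated by Myc, 14 were called higher and 3 lower in the EDL mean of both days, beside 13.1% and 11.0% of all genes, and their median log2 fold change was 0.366 against -0.0406 for all genes tested. Srm, the spermidine synthase of polyamine synthesis, was 8.05 to 11.4 FPKM in the Cre- and 21.4 to 50.6 FPKM in the Cre+ EDL libraries of both days. It rose by 1.25 ± 0.19 (edgeR adjusted p = 0.000287). Slc7a5, the large amino acid transporter, rose by 1.25 ± 0.24, and the nucleolar proteins Ncl and Npm1 by 0.80 ± 0.14 and 0.70 ± 0.12. Those that fell were Tfrc, the transferrin receptor (-1.93 ± 0.33), Hk2, the muscle hexokinase (-1.07 ± 0.12), and Ppat, which opens purine synthesis (-0.53 ± 0.12), so the direction of the list was not shared by all of it. Ldha, the most abundant, was at -0.47 in the mean and was not called there. At 2.5 days 13 were called higher and 3 lower in EDL, beside 13.8% and 10.2% of all genes, with a median of 0.428. At 8.5 days 1 was called higher and 3 lower, beside 7.63% and 6.50% of all genes, with a median of 0.197. The count at 8.5 days was 5 higher with DESeq2 and 7 higher with library size alone. Over all genes these settings called 1293 and 1956 higher at that day, against 1173 in the main fit. In the SOL mean 0 of 33 were called by edgeR, beside 1.47% of all genes. DESeq2 called 0 of them too, beside 296 genes higher and 154 lower over all genes. At an unadjusted edgeR p under 0.05 there were 4, beside 16.3% of all genes, and the median was 0.107. These numbers are too small to set apart from the shares of all genes. The difference of the change between EDL and SOL was called for 3 of the 33 upwards and 3 downwards, beside 5.91% and 3.04% of all genes.

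Of 8 genes known to be repressed by Myc, 1 was called higher and 2 lower in the EDL mean, numbers too small to set apart from the 13.1% and 11.0% of all genes. Cdkn1a, the cell cycle inhibitor p21, was the one that rose, by 2.61 ± 0.21 at 2.5 days (edgeR adjusted p = 1.04e-05) and 2.09 ± 0.21 at 8.5 days (edgeR adjusted p = 4.5e-05), and also in the SOL mean by 0.88 (edgeR adjusted p = 0.00815). It ran from 13.6 to 29.9 FPKM in the Cre- and from 89.2 to 158 FPKM in the Cre+ EDL libraries. Ndrg2, a differentiation gene, and Cdkn1b, the inhibitor p27, fell, with log2 values of -0.68 ± 0.11 and -0.51 ± 0.11. Of the Mondo and Mlx targets, 10 of 12 could be tested, with 2 called higher and 2 lower in the EDL mean, beside the same shares. Klf10, a zinc finger factor, rose by 1.42 ± 0.36 and the fatty acid synthase Fasn by 0.99 ± 0.31. Klf10 was called at 2.5 days (2.13, edgeR adjusted p = 0.00862) and not at 8.5 days (0.71, edgeR adjusted p = 0.367). Its EDL libraries overlapped, at 1.92 to 13.9 FPKM in Cre- and 9.67 to 23.8 FPKM in Cre+. Fasn was called at neither day alone (edgeR adjusted p = 0.0994 and 0.182). Gpd1, the glycerol phosphate dehydrogenase, and Khk, the fructokinase, fell, at -1.81 ± 0.18 and -0.67 ± 0.11. Txnip, the standard readout of MondoA, was at -0.24 ± 0.36 and not called.

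The network's partners and regulators were read in the same EDL mean, where 13.1% of all genes were called higher and 11.0% lower. Among 5 other genes of the extended network, Mlxipl, which encodes ChREBP, was lower at -0.97 in the EDL mean (edgeR adjusted p = 0.000127), and Mlxip, which encodes MondoA, was at -0.10 ± 0.11. Mlxipl ran from 38.2 to 41.2 FPKM in the Cre- and from 15.1 to 30.7 FPKM in the Cre+ EDL libraries. It was called at 2.5 days (-1.37, edgeR adjusted p = 0.000281) and not at 8.5 days (-0.57, edgeR adjusted p = 0.0557). Of 18 cofactors of Myc, 2 were called higher (Smarcb1 0.54 and Zbtb17 0.53, the latter encoding Miz1) and 1 lower (the acetyltransferase Ep300, -0.59). Smarcb1 was called at neither day alone (edgeR adjusted p = 0.12 and 0.0582). The abundant Paf1 and Ruvbl2 were at -0.12 and 0.18. Of 15 genes of Myc protein turnover, Usp28, a deubiquitinase that stabilises Myc, was the 1 called, at 0.65. Usp28 was called at 2.5 days (0.89, edgeR adjusted p = 0.0147) and not at 8.5 days (0.40, edgeR adjusted p = 0.282). It ran from 16.9 to 18.9 FPKM in the Cre- and from 23.7 to 60.2 FPKM in the Cre+ EDL libraries. The abundant Stub1 and Ppp2r5a were at 0.24 and -0.12. Of 15 genes of the Sin3 corepressor that the antagonists recruit, Ing2 was the 1 called, at -0.93, and the abundant Rbbp7 and Suds3 were at -0.42 and 0.05. In the SOL mean edgeR and DESeq2 called 0 genes of these 4 lists, where edgeR called 1.47% of all genes. At an unadjusted edgeR p under 0.05 the lists held 1, 0, 3 and 0, beside 16.3% of all genes.

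**Figure D5:**
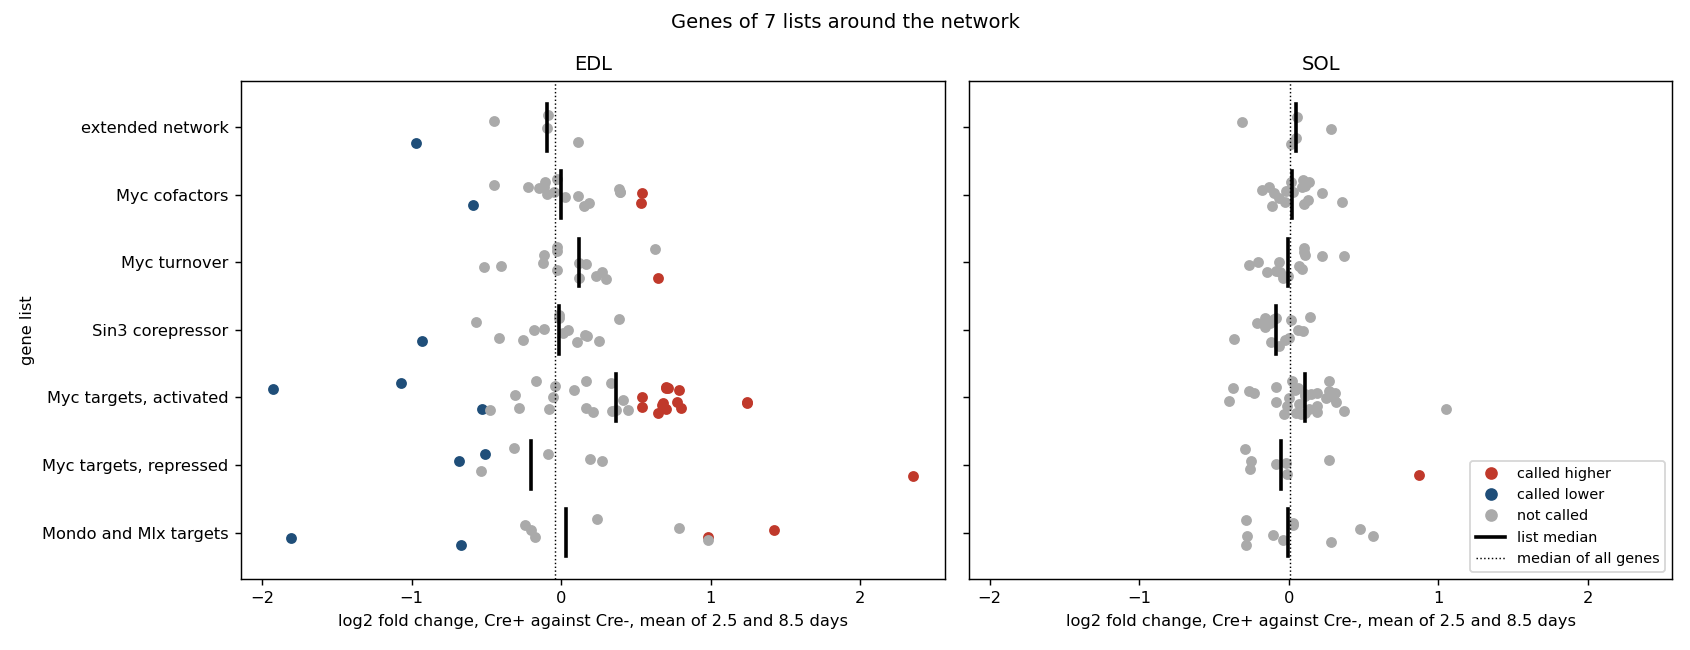
log2 fold change of each tested gene of 7 lists, Cre+ against Cre-, mean of 2.5 and 8.5 days, in EDL (left) and SOL (right), with 1 point per gene, a bar at the list median and a dotted line at the median of all genes. In EDL the activated Myc targets have 14 points called higher (red) and 3 lower (blue), and in SOL Cdkn1a, among the repressed targets, is the 1 gene called.

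The genes whose profile was most like that of each member were read over the 16 libraries among 11474 genes with a mean of at least 1 FPKM, as Pearson's r of log2 CPM. For Myc they were Tmem43 (r = 0.974), Kcnk5 (0.969), Capn2 (0.969), Klc1 (0.967) and Emp2 (0.964). For the others the closest were Murc for Mycn (0.912), Ncoa3 for Mycl (0.914), Gnl2 for Max (0.861), Fnbp4 for Mxd1 (0.931), Dclk1 for Mxd3 (0.936), Abhd14a for Mxd4 (0.952), Dnajc21 for Mxi1 (0.903), Mon1b for Mnt (0.922) and Mettl7a1 for Mlx (0.954). The points share muscle, genotype and day, so these values describe the same group differences and carry no test.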

How the data were processed

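Polyadenylated RNA of whole EDL and SOL was sequenced as single-end libraries. Per the labels and the study's methods, the authors aligned reads with STAR 2.5.3a to mm10 and deposited raw counts per gene over exons with HOMER, in 1 table of 24 libraries; each gene's length came with it. Whether counting used strand is not given in the sources used here. FPKM was computed here from the counts, length and library total. edgeR 4.0.16 (R 4.3.3) fitted the 16 libraries of 2.5 and 8.5 days by group, after a filter on low counts (minimum 10) and TMM scaling. Libraries of 5.5 days entered a fit of all 24. The fits were tested on simulated counts. Replicates of each group differed by more than counting noise. Members, though named by a rule without measured values, lists and tests were chosen with earlier results of these data known. Members are all printed; of each list, the called genes up to 3 each way in the EDL mean and the 2 most abundant, and for likeness the closest gene (5 for Myc). EDL and SOL of the same number deviated together (r = 0.173 to 0.445 in 6 pairs), whereas Cre+ and Cre- did not (r = -0.169 to 0.0578). DESeq2 1.42.0, other scalings, filters, blocks and left-out libraries were alternatives.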

Additional observations from a re-analysis of the deposited data

Results flagged for a closer look

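The change of Myc with Cre differed between EDL and SOL, by 2.11 on the log2 scale in the mean of 2.5 and 8.5 days (edgeR quasi-likelihood test of the interaction, adjusted p = 0.0164). On these days Myc lay above every control library of the same muscle in 4 of 4 Cre+ libraries. Over all genes, 15.0% lay above in this way in EDL and 4.54% in SOL. With Cre, Myc stood at 25.4 to 99.4 FPKM in EDL and at 8.17 to 18.1 FPKM in SOL on these days. At 5.5 days the Cre+ libraries held 4.19 and 42.8 FPKM in EDL and 1.88 and 1.95 FPKM in SOL. With 5.5 days included, the SOL Cre+ and Cre- libraries overlapped. In the fit of all 24 libraries the difference was 2.12 and not called (edgeR adjusted p = 0.0529). No other member met this test at the adjusted threshold in the fit of 16 libraries. Myc is a gene of the cassette, so these counts add the cassette transcript to that of the mouse's own gene. The 16 libraries may also have been kept by the study in part for their level of Myc. The paper reports from the same series that Oct4, Sox2 and c-Myc were higher in Cre+ EDL than in Cre+ SOL. What sets the difference was not tested.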

How the results depend on the processing

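The number of members called depended on the processing as follows. Scaling by library size alone called 7 in EDL at 2.5 days and 6 in the EDL mean instead of 4 each (Max, Mlx and Mxd4 were added at 2.5 days, Mlx and Mxd4 in the mean), and 2 instead of 1 for the difference of the change between EDL and SOL. Over all genes it moved the EDL mean from 2009 higher and 1692 lower to 3648 and 758. It moved EDL at 2.5 days from 2118 and 1566 to 4207 and 610, and the difference between EDL and SOL from 909 and 468 to 1620 and 238. DESeq2 on the 16 libraries, DESeq2 on 4 libraries and no filter on low counts each called 1 in SOL at 2.5 days and 1 at 8.5 days instead of 0, and DESeq2 called 2 in the SOL mean and 2 for the difference between EDL and SOL. Over all genes, DESeq2 on the 16 libraries called 182 higher and 185 lower in SOL at 2.5 days, where edgeR called 53 and 6. At 8.5 days it called 108 and 63 (edgeR 51 and 46), and in the SOL mean 296 and 154 (edgeR 175 and 51). For the difference between EDL and SOL it called 1186 and 619 (edgeR 909 and 468). For that difference, all 24 libraries gave 0 and the replicate block that pairs EDL with SOL gave 2. In EDL, all 24 libraries lost Mnt at 2.5 days and Mycn at 8.5 days and added Mxd1 in the mean, and DESeq2 on 4 libraries lost Mycn at both days. A minimum of 10 counts in every library, which removes low members, left 1 in EDL against SOL in Cre- mice, 2 in Cre+ mice and 1 for 8.5 against 2.5 days in Cre- mice. In EDL at 5.5 days, DESeq2 and no filter gave 2, and DESeq2 on 4 libraries, the replicate block and the 4 libraries alone gave 0. Over all genes DESeq2 on the 24 libraries called 131 higher and 41 lower there, beside 40 and 7 by edgeR.

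The replicate block on the shared numbers of Cre+ and Cre- gave 3 members in EDL at 2.5 days (Mnt was lost at 0.67, adjusted p = 0.0651), 3 at 8.5 days and 4 in the mean of both. Leaving out each library in turn gave 2 to 5 members in EDL at 2.5 days, 1 to 2 at 8.5 days and 4 to 5 in the mean of both. It gave 1 in the SOL mean, 1 to 2 for the difference between EDL and SOL, 0 to 2 in EDL against SOL in Cre- mice, 2 to 5 in Cre+ mice, 1 to 2 for days in Cre- mice and 0 to 1 in EDL at 5.5 days. No called member changed direction under any alternative. The cause of the other changes was not tested. Low counts in controls, at most 20 for Mxd3, 35 for Mycl and 68 for Mycn, limit what can be seen of those genes.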
